A study of Mus musculus with 8 samples.

Results

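The dual-specificity MAP kinase phosphatases were described as 9 genes listed by symbol, Dusp1, Dusp2, Dusp3, Dusp4, Dusp5, Dusp6, Dusp7, Dusp10 and Dusp16. Of these, 8 were among the 13388 genes of the series and all 8 were kept by the filter on low values, which required at least 1 CPM (depth-scaled counts) in at least 2 libraries and kept 13374 genes. Dusp4 is not analysed here. RNA came from Ly6C+ classical monocytes and from common monocyte progenitors (cMoPs), their proliferating precursors, both sorted from the bone marrow of wild-type mice. Coculture lasted 6 h, on stroma of the OP9 line, derived from mouse marrow, or on OP9-DLL1, its derivative that carries the Notch ligand DLL1. This gave 4 groups of 2 libraries: monocytes on OP9, monocytes on OP9-DLL1, cMoPs on OP9 and cMoPs on OP9-DLL1. The sources used here do not give the age or number of the mice. Every group had met stroma, so no group shows the cells before coculture.

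MAP kinases are switched on when an upstream kinase phosphorylates a threonine and a tyrosine in their activation loop. Dual-specificity phosphatases remove both phosphates and so end the signal. Several of their genes are themselves induced by the kinases they switch off, which makes them a negative feedback, and in myeloid cells they are best known for limiting the output of growth factor and Toll-like receptor signalling. Family members differ in where they act and on which kinase. Dusp1, Dusp2 and Dusp5 encode inducible nuclear enzymes. Dusp6 and Dusp7 encode cytoplasmic enzymes that prefer ERK. Dusp10 and Dusp16 encode enzymes that prefer the stress kinases JNK and p38. Dusp3 encodes VHR, a small atypical member without the kinase-binding domain of the others.

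Depth was 47316323 to 62459962 recovered reads per library, so that 1 read was worth 0.0151 to 0.0231 CPM. Hes1, a direct target of Notch, had 1 to 3 reads in each OP9 library. On OP9-DLL1 it had 570 and 581 reads in monocytes (11.7 and 11.3 CPM). In cMoPs on OP9-DLL1 it had 166 and 185 reads (2.92 and 3.13 CPM). The 9 monocyte markers summed to 5703 to 8308 CPM in monocytes and 3968 to 4786 CPM in cMoPs, and the 9 of 10 progenitor markers in the table to 341 to 799.5 CPM and 15220 to 22540 CPM, in the order of the labels. Of 15 stroma markers 7 were in the table. In monocytes they summed to 23.4 and 25.3 CPM on OP9 against 6.13 and 20.2 CPM on OP9-DLL1, and in cMoPs to 45.6 and 51.8 CPM against 57.6 and 65.7 CPM. Igfbp4 made up most of the sum in cMoPs (45.0 to 64.4 CPM). Pdgfrb, the stroma marker that went the other way in monocytes, had 0.0346 and 0.214 CPM on OP9 against 2.91 and 4.24 CPM on OP9-DLL1, whereas cMoP libraries had at most 0.818 CPM. With Igfbp4 and Pdgfrb left out, chosen after the values were seen, the other 5 summed in monocytes to 21.5 and 22.9 CPM on OP9 against 1.41 and 13.9 CPM on OP9-DLL1, and in cMoPs to 0.264 to 2.47 CPM. The 2 platelet markers in the table, Pf4 and Ppbp, summed in monocytes to 113 and 195 CPM on OP9 against 22.2 and 12.7 CPM on OP9-DLL1, and the macrophage markers to 636 and 394 CPM against 350 and 329 CPM. The part of these markers in the results was not tested. The libraries of monocytes on OP9 stood farthest apart (chi-square per degree of freedom 157, against at most 45.9 in the other groups), also in the proliferation marker Top2a (106 and 351 CPM). In these bulk samples, fewer cells of a type and less RNA per cell cannot be told apart.

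In these libraries the makeup of the phosphatase transcripts was not the same on the 2 stromas in either cell type. Levels of different genes were compared after division by exon length (CPM per kb), which is approximate. The length is the union of all annotated exons, and the transcripts made in these cells may be shorter. On this scale Dusp3 was the highest of the 8 on OP9 in both cell types and Dusp6 was the highest on OP9-DLL1 in both. Dusp6 made up 19.4% and 33.4% of the summed per-length level in monocytes on OP9 and 57.1% and 61.9% on OP9-DLL1. In cMoPs its share was 22.0% and 24.3% on OP9 and 51.6% and 55.3% on OP9-DLL1. The share of Dusp3 was 47.9% and 40.6% in monocytes on OP9 against 23.3% and 19.7% on OP9-DLL1, and 40.0% and 41.8% in cMoPs on OP9 against 22.4% and 18.0% on OP9-DLL1. For both genes the shares on the 2 stromas did not overlap in either cell type. In log2 CPM the stromas did not overlap for 47.8% of all genes in monocytes and 46.7% in cMoPs. Shares of 1 sum are tied, so a larger share of Dusp6 makes the others smaller. The level of Dusp3 was 28.7 CPM per kb on OP9 and 20.4 on OP9-DLL1 in monocytes. In cMoPs it was 10.8 and 6.46. With 2 libraries a group these shares were not tested.

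**Figure D1:**
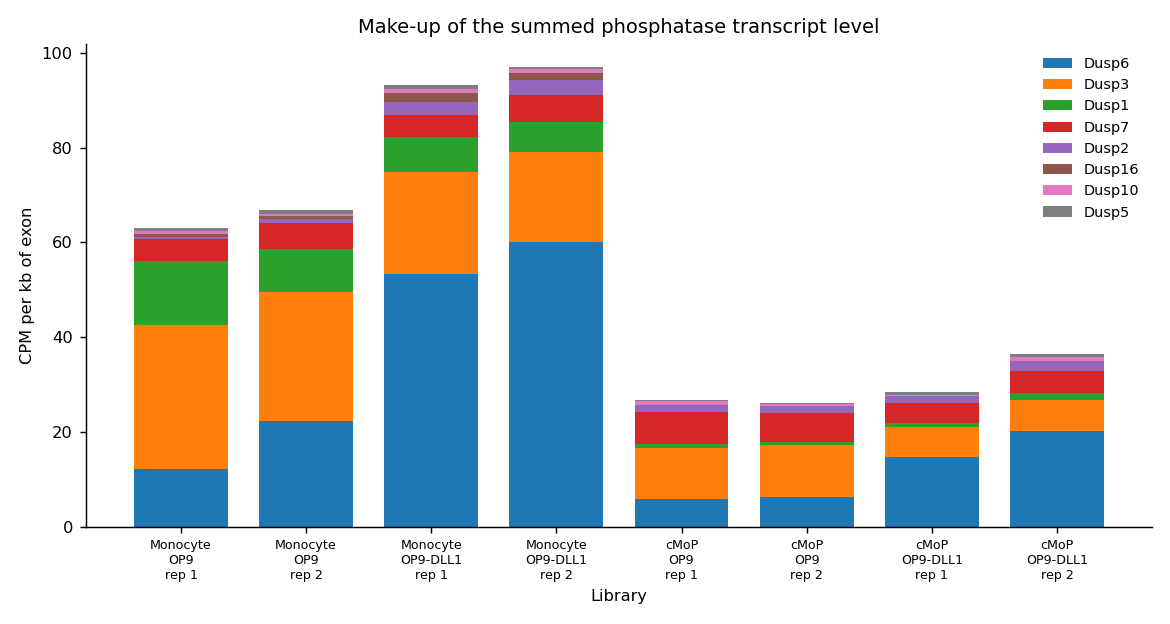
Stacked bars give the level of each of the 8 genes in each library, in CPM per kb of exon, so that a bar's height is their summed level. Dusp6 is the widest band in the 4 OP9-DLL1 libraries and Dusp3 in the 4 OP9 libraries, and the summed level is 93.2 and 97.0 CPM per kb in monocytes on OP9-DLL1 against 63.1 and 66.8 on OP9.

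The order of the per-length levels was, in monocytes on OP9, Dusp3 (28.7 ± 2.18 CPM per kb, SD, n = 2), Dusp6 (17.3 ± 7.14), Dusp1 (11.3 ± 3.20), Dusp7 (5.04 ± 0.621), Dusp2 (0.773 ± 0.319), Dusp5, Dusp16 and Dusp10 (0.568 ± 0.0721). There Dusp6 overlapped Dusp1, Dusp2 overlapped Dusp5, Dusp16 and Dusp10, and Dusp16 overlapped Dusp10. On OP9-DLL1 monocytes had Dusp6 first (56.6 ± 4.79), then Dusp3 (20.4 ± 1.85), Dusp1 (6.84 ± 0.762), Dusp7 (5.10 ± 0.719), Dusp2 (2.98 ± 0.298), Dusp16 (1.77 ± 0.248), Dusp10 and Dusp5, of which the last pair overlapped. In cMoPs on OP9 Dusp3 (10.8 ± 0.170) was followed by Dusp7 (6.48 ± 0.496) and Dusp6 (6.11 ± 0.324), which overlapped, and in cMoPs on OP9-DLL1 Dusp6 (17.4 ± 3.91) was followed by Dusp3 (6.46 ± 0.166) and Dusp7 (4.50 ± 0.435). Dusp16 was last in cMoPs, at 0.117 ± 0.0485 CPM per kb on OP9 and 0.0528 ± 0.0157 on OP9-DLL1. The summed level in cMoPs was 26.7 and 26.1 CPM per kb on OP9 and 28.4 and 36.4 on OP9-DLL1.

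Contact with OP9-DLL1 stroma was compared with OP9 in each cell type. In monocytes Dusp6, Dusp2 and Dusp16 rose and Dusp3 fell. In cMoPs Dusp6 rose and Dusp3 fell. That is 3 higher and 1 lower of 8 in monocytes, where 3.36% of all 13374 tested genes were higher and 3.03% lower (6.39% in either direction, limma-trend adjusted p under 0.05). In cMoPs it is 1 higher and 1 lower of 8, where 0.464% of all genes were higher and 0.307% lower (0.77% in either direction). The members were chosen with earlier results of these data known, so these shares are given as description. In neither cell type did any of these calls hold in all 17 alternative settings, which the last section lists. The median log2 fold change of the 8 was 0.23 in monocytes (0.01 over all genes) and -0.13 in cMoPs (0.01 over all genes). The libraries of the 2 stromas did not overlap for 6 of the 8 genes in monocytes (47.8% of all genes) and for 6 of the 8 in cMoPs (46.7% of all genes, 25.0% higher and 21.7% lower).

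**Figure D2:**
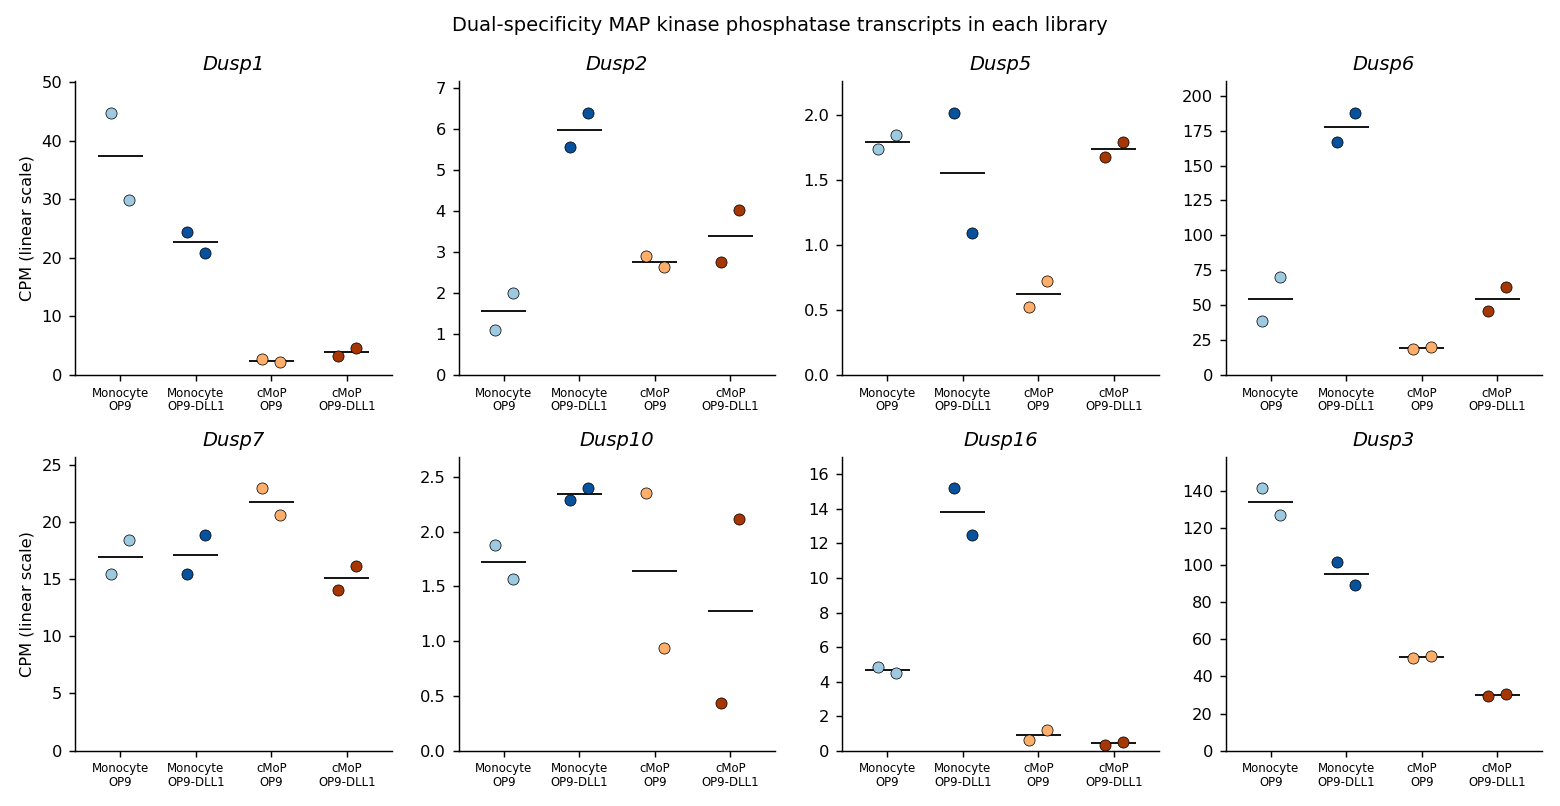
Each panel shows the CPM of 1 gene on a linear scale that starts at 0, with 1 point per library and a line at the mean of the 2 libraries of each group. Dusp6 is higher and Dusp3 lower on OP9-DLL1 in both cell types, whereas Dusp2 and Dusp16 are higher on OP9-DLL1 in monocytes, and the cMoP libraries of Dusp2 overlap.

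Of the cytoplasmic ERK phosphatases, Dusp6 (chromosome 10, 99263231 to 99267489, GRCm38) was at 38.3 and 69.9 CPM in monocytes on OP9 and 167 and 188 CPM on OP9-DLL1. In cMoPs it was at 18.4 and 19.9 CPM on OP9 and 45.8 and 63.1 CPM on OP9-DLL1. Every OP9-DLL1 library was thus above both OP9 libraries of its cell type. The rise was 3.42-fold in monocytes (log2 1.77 ± 0.26, SE, limma-trend adjusted p = 0.00584) and 2.81-fold in cMoPs (log2 1.49 ± 0.26, adjusted p = 0.0369). The responses of the 2 cell types differed by -0.28 on the log2 scale (cMoPs minus monocytes, 95% interval -1.11 to 0.55, adjusted p = 0.841), so a difference of up to about a log2 unit in favour of monocytes lies within the interval. Both calls ended when the spread was fitted without a trend on the mean level (adjusted p = 0.0573 in monocytes and 0.233 in cMoPs). Without monocytes on OP9-DLL1 replicate 2 the monocyte call ended (adjusted p = 0.0642), and the cMoP call ended without any 1 of the 4 cMoP libraries or either OP9-DLL1 monocyte library (adjusted p 0.0936 to 0.26). The authors' deposited table gives adjusted p = 0.0019 for Dusp6 in monocytes and 0.00273 in cMoPs.

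Dusp7 (chromosome 9, 106368632 to 106375724), which encodes the nearest relative of the Dusp6 enzyme, did not pass in either cell type. It was at 15.4 and 18.4 CPM in monocytes on OP9 and 15.4 and 18.8 CPM on OP9-DLL1, which overlap (log2 0.02 ± 0.18, 95% interval -0.38 to 0.42, adjusted p = 0.972). In cMoPs it was at 22.9 and 20.6 CPM on OP9 and 14.1 and 16.1 CPM on OP9-DLL1, so that both OP9-DLL1 libraries were below both OP9 libraries (log2 -0.53 ± 0.18, adjusted p = 0.338).

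Of the nuclear inducible genes, Dusp2 (chromosome 2, 127336159 to 127338376), also called PAC-1 and known from activated leukocytes, was at 1.10 and 1.9993 CPM in monocytes on OP9 and 5.55 and 6.40 CPM on OP9-DLL1. The OP9-DLL1 libraries were above the OP9 libraries, and the rise was 4.02-fold (log2 2.01 ± 0.35, limma-trend adjusted p = 0.0119, 154 against 599 reads). Without either OP9-DLL1 monocyte library this call ended (adjusted p = 0.0638 and 0.108), and with only the 4 monocyte libraries in the fit the adjusted p was 0.0506. In cMoPs Dusp2 was at 2.89 and 2.62 CPM on OP9 and 2.75 and 4.02 CPM on OP9-DLL1, which overlap (log2 0.27 ± 0.35, adjusted p = 0.899). Dusp1 (chromosome 17, 26505590 to 26562128), whose product MKP-1 is the classical brake on p38 in stimulated macrophages, had 44.8 and 29.9 CPM in monocytes on plain OP9 stroma against 24.4 and 20.9 CPM with DLL1 (log2 -0.70 ± 0.26, adjusted p = 0.153). In cMoPs it was at 2.65 and 2.24 CPM on OP9 against 3.24 and 4.61 CPM with DLL1 (log2 0.67 ± 0.26, adjusted p = 0.439). The stromas did not overlap for Dusp1 in either cell type, with OP9-DLL1 below OP9 in monocytes and above it in cMoPs, and neither comparison passed. Without monocytes on OP9 replicate 2 the monocyte value of Dusp1 passed (log2 -0.99, adjusted p = 0.0334).

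Dusp5 (chromosome 19, 53529109 to 53542431), which encodes a nuclear phosphatase specific for ERK, was at 1.74 and 1.85 CPM in monocytes on OP9 and 2.02 and 1.10 CPM on OP9-DLL1, which overlap (log2 -0.27 ± 0.43, adjusted p = 0.77). In cMoPs it was at 0.521 and 0.721 CPM on OP9 (73 reads in all) and 1.68 and 1.80 CPM on OP9-DLL1 (201 reads). Both OP9-DLL1 libraries of cMoPs were higher, but the comparison did not pass (log2 1.5015 ± 0.43, adjusted p = 0.227). The library kit does not mark strand, and an antisense gene, AC137853.2, covers 22.1% of the exon bases of Dusp5, so reads of the 2 cannot be told apart there.

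Of the phosphatases of JNK and p38, Dusp16 (chromosome 6, 134715468 to 134792625), whose product is also called MKP-7, was at 4.81 and 4.47 CPM in monocytes on OP9 and 15.2 and 12.5 CPM on OP9-DLL1. The rise was 2.97-fold (log2 1.57 ± 0.38, limma-trend adjusted p = 0.0452). This call ended without any 1 of the 4 monocyte libraries or either OP9-DLL1 cMoP library (adjusted p 0.0519 to 0.226) with libraries centred on their medians (adjusted p = 0.0527) and without the trend (0.0843), and the authors' deposited table gives adjusted p = 0.0193. In cMoPs Dusp16 was at 0.642 and 1.18 CPM on OP9 and 0.325 and 0.498 CPM on OP9-DLL1, or 106 against 47 reads, with both OP9-DLL1 libraries below both OP9 libraries (log2 -1.11 ± 0.38, adjusted p = 0.353). Dusp10 (chromosome 1, 184013302 to 184075636), whose product is MKP-5, had 1.88 and 1.57 CPM in monocytes on OP9 against 2.29 and 2.40 CPM with DLL1 (log2 0.45 ± 0.70, adjusted p = 0.77). In cMoPs it varied between replicates more than between stromas, at 2.35 and 0.940 CPM on OP9 and 0.430 and 2.12 CPM on OP9-DLL1 (adjusted p = 0.878).

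The atypical member Dusp3 (chromosome 11, 101971143 to 101987013) was at 142 and 127 CPM in monocytes on OP9 and 102 and 89.3 CPM on OP9-DLL1, and at 50.0 and 51.1 CPM in cMoPs on OP9 and 29.7 and 30.8 CPM on OP9-DLL1. Every OP9-DLL1 library was below both OP9 libraries of its cell type, and replicates lay close together. Dusp3 fell by 0.50 on the log2 scale in monocytes (SE 0.12, limma-trend adjusted p = 0.0491) and by 0.74 in cMoPs (SE 0.12, adjusted p = 0.0311). Monocytes on OP9 replicate 2 was the only library whose omission kept the monocyte call (adjusted p up to 0.309 without another library), and the cMoP call stayed only without 1 or the other OP9 monocyte library (up to 0.258 without another). Without the trend both calls ended (0.134 and 0.18), as did the monocyte call with library weights (0.0721) or only the 4 libraries compared (0.172) and the cMoP call by voom (0.0507). The authors' deposited table gives adjusted p = 0.0698 in monocytes and 0.00928 in cMoPs. The antisense gene Gm20659 covers 12.9% of the exon bases of Dusp3.

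**Figure D3:**
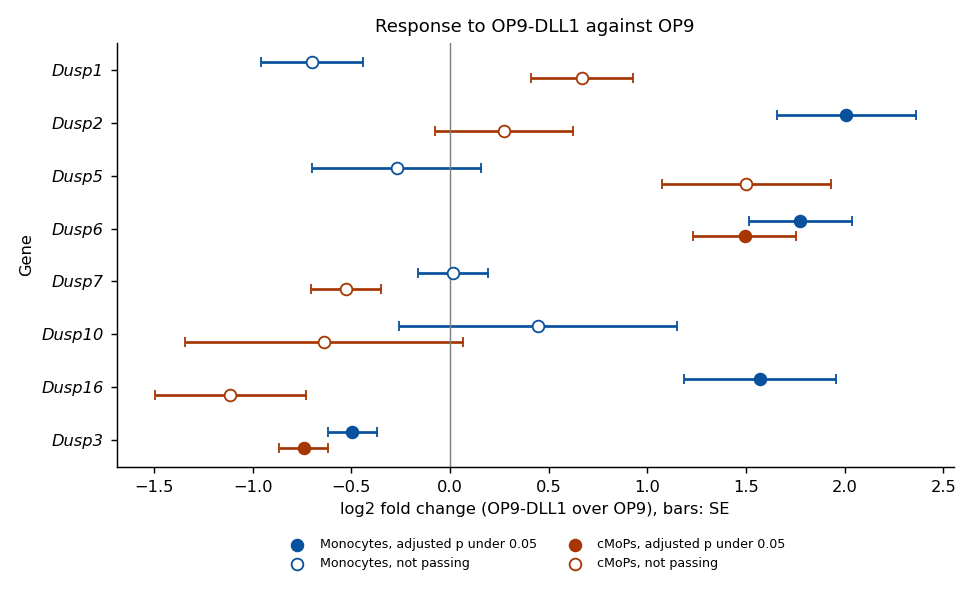
Points give the log2 fold change of each gene on OP9-DLL1 over OP9 in monocytes (blue) and cMoPs (brown), with bars of 1 SE, filled where the limma-trend adjusted p was under 0.05. Dusp6 lies to the right and Dusp3 to the left of 0 in both cell types, and Dusp16 lies on opposite sides (1.57 in monocytes and -1.11 in cMoPs).

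Whether the cell types responded differently was tested as the difference of the responses. None of the 8 genes passed by limma-trend (all genes 0.0523%, of which 0.0299% higher and 0.0224% lower). At an unadjusted p below 0.05 there were 2 higher and 2 lower. At an adjusted p under 0.05, voom gave 0 with or without library weights. Dusp16 had the lowest p, with a response 2.68 log2 units lower in cMoPs than in monocytes (difference -2.68 ± 0.54, 95% interval -3.91 to -1.46, unadjusted p = 0.000753, adjusted p = 0.18). The difference was 1.36 ± 0.37 for Dusp1 (adjusted p = 0.276), -1.74 ± 0.49 for Dusp2 (adjusted p = 0.324) and 1.77 ± 0.60 for Dusp5 (adjusted p = 0.396). For Dusp3, lower on OP9-DLL1 in both cell types, the 95% interval was -0.64 to 0.15. Without monocytes on OP9 replicate 2, Dusp16 (-2.63, adjusted p = 0.0352), Dusp1 (1.66, adjusted p = 0.0237) and Dusp2 (-2.17, adjusted p = 0.0209) passed, as did 8.4% of all genes. Over the 15 alternatives the adjusted p of Dusp16 ranged from 0.0352 to 0.532.

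The 250 bases before the RefSeq start (GRCm38.p6) of the 3 genes that rose in monocytes are shown, because these promoters can be compared for motifs of the Notch and MAP kinase pathways. They are written 5′ to 3′ on the strand of the gene, with matches to a searched motif on either strand in capitals. Dusp2 is at chr2:127335909-127336158 on the plus strand, Dusp6 at chr10:99262981-99263230 on the plus strand and Dusp16 at chr6:134792629-134792878 on the minus strand.
Dusp2: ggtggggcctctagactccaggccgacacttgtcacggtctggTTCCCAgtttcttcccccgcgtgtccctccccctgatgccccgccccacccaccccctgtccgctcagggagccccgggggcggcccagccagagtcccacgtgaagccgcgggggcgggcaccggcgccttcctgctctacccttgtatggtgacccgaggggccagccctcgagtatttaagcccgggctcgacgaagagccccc
Dusp6: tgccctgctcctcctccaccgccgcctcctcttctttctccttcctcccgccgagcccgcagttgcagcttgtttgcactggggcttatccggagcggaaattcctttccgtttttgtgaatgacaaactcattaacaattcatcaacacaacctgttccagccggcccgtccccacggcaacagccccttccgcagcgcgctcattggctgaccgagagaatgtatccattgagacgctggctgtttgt
Dusp16: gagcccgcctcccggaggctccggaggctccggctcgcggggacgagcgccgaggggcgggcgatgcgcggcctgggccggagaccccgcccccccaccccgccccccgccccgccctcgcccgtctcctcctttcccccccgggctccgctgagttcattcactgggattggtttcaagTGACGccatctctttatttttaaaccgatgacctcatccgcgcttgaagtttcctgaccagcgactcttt
The motifs searched on both strands were TGGGAA (RBPJ, the DNA-binding partner of Notch), TGACGTCA (the full cAMP response element), TGACG (the short form of that element, contained in it), TGANTCA (AP-1), CCGGAA (ETS) and the CArG box of SRF. Dusp2 held TGGGAA, on the minus strand 207 to 202 bases before the start, and Dusp16 held TGACG 70 to 66 bases before it. Dusp6 held none of them in this window. Of the windows of all 8 genes, 1 held TGGGAA (21.6% of 32851 windows of all genes), 3 held TGACG (17.8%), 1 held TGACGTCA (Dusp1, 1.55%) and 1 held a CArG box (Dusp5, 1.47%), which Dusp5 had as an adjoining pair 82 to 63 bases before the start. None of the 8 held TGANTCA (6.75%) or CCGGAA (12.0%). GC content was 70.4% in the Dusp2 window, 56.4% in that of Dusp6 and 68.4% in that of Dusp16 (median of all windows 52.4%). A match is a description of the letters and not a measured binding site.

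The cell types were then compared on each stroma. Of the 8 genes 5 were lower in cMoPs on OP9 (Dusp1, Dusp3, Dusp5, Dusp6 and Dusp16) and 4 on OP9-DLL1 (Dusp1, Dusp3, Dusp6 and Dusp16), and none was higher on either. Over all genes 27.7% were lower and 28.8% higher on OP9 (56.5% in either direction), and 29.2% lower and 28.2% higher on OP9-DLL1 (57.4%). The median log2 fold change of the 8 was -1.42 on OP9 and -1.48 on OP9-DLL1 (0.01 and -0.01 over all genes). The count of higher members at an unadjusted p below 0.05 was 1 on OP9 and 0 on OP9-DLL1. At an adjusted p under 0.05, voom gave 0 higher members on both. The libraries of the cell types did not overlap for 7 of the 8 genes on OP9, 2 higher and 5 lower in cMoPs (78.4% of all genes, 39.9% higher and 38.5% lower). On OP9-DLL1 they did not overlap for 6, all lower (82.8% of all genes, 41.1% higher and 41.7% lower).

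Dusp1 differed most between the cell types on OP9, at 37.4 ± 10.6 CPM in monocytes and 2.44 ± 0.294 CPM in cMoPs (SD, n = 2), which is 15.0-fold lower in cMoPs (log2 -3.91 ± 0.26, SE, limma-trend adjusted p = 3.99e-06). On OP9-DLL1 its difference was -2.55 ± 0.26 (adjusted p = 3.77e-05). Dusp16 differed most on OP9-DLL1, at 13.8 ± 1.93 CPM in monocytes and 0.411 ± 0.122 CPM in cMoPs, or 1382 against 47 reads, which is 34.2-fold lower in cMoPs (log2 -5.10 ± 0.38, adjusted p = 6.09e-06), and its difference on OP9 was -2.42 ± 0.38 (adjusted p = 0.000654). The size of the Dusp16 difference depends on how low values are treated. On log2(CPM + 1) it was -3.39 on OP9-DLL1 and -1.58 on OP9. Dusp3 was lower in cMoPs by 1.41 ± 0.12 on the log2 scale on OP9 and by 1.66 ± 0.12 on OP9-DLL1, and Dusp6 by 1.44 ± 0.26 and 1.72 ± 0.26. These 4 genes passed in all 17 alternatives on both stromas. The 8 of 9 macrophage markers in the table summed to 329 to 636 CPM in monocytes and 36.7 to 45.8 CPM in cMoPs. The 10 neutrophil markers, which share Elane with the progenitor list, summed to 1745 to 2551 CPM and 8098 to 12550 CPM. The 2 platelet markers summed to 12.7 to 195 CPM in monocytes and 0.650 to 2.04 CPM in cMoPs. The 2 T and NK cell markers in the table summed to 1.27 to 2.23 CPM and 179 to 322 CPM. Their part in these differences was not tested. Dusp5 was lower in cMoPs on OP9 (-1.55 ± 0.43, adjusted p = 0.0125, but 0.0739 without cMoPs on OP9 replicate 1) and overlapped between the cell types on OP9-DLL1 (0.22 ± 0.43, 95% interval -0.74 to 1.18, adjusted p = 0.677).

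Dusp2, Dusp7 and Dusp10 did not pass between the cell types. Dusp2 was higher in both cMoP libraries than in both monocyte libraries on OP9 (0.89 ± 0.35, adjusted p = 0.053) and lower in both on OP9-DLL1 (-0.84 ± 0.35, adjusted p = 0.0648). It passed on OP9 without monocytes on OP9 replicate 2 (adjusted p = 0.00858) and with libraries centred on their medians (0.0429). On OP9-DLL1 it passed in 7 of 17 alternatives, both voom fits and the authors' deposited table (adjusted p = 0.0124) among them, and without either OP9 monocyte library (0.0227 and 0.0252). Dusp10 passed on OP9-DLL1 without cMoPs on OP9-DLL1 replicate 2 (-2.44, adjusted p = 0.0119) and was at -1.30 ± 0.70 with it (adjusted p = 0.141). Dusp7 was at 0.37 ± 0.18 on OP9 (adjusted p = 0.105) and -0.18 ± 0.18 on OP9-DLL1 (adjusted p = 0.418). The coculture and cell type comparisons share libraries, so their values for a gene are not independent of each other.

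**Figure D4:**
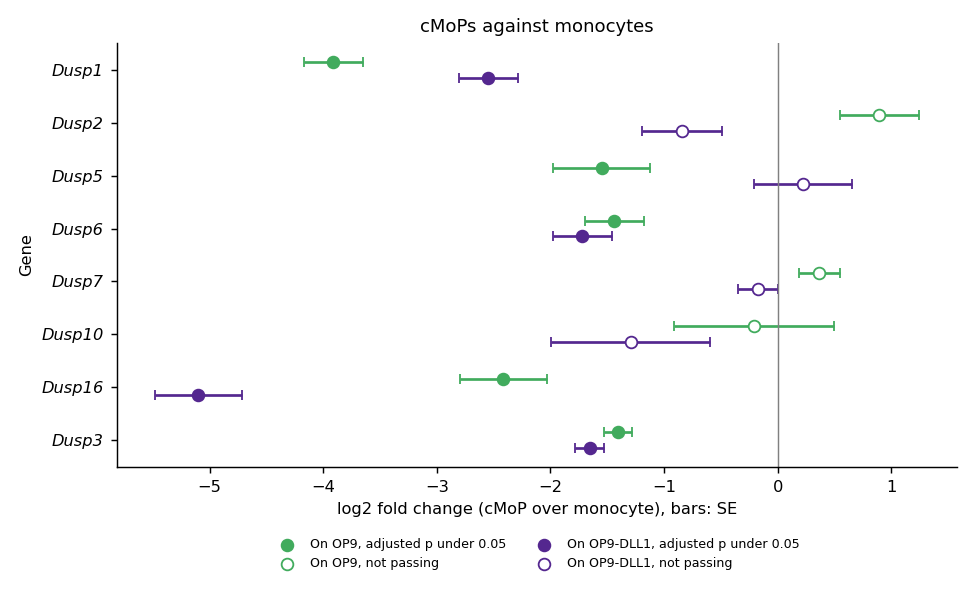
Points give the log2 fold change of each gene in cMoPs over monocytes on OP9 (green) and on OP9-DLL1 (purple), with bars of 1 SE, filled where the limma-trend adjusted p was under 0.05. Dusp1, Dusp3, Dusp6 and Dusp16 lie left of 0 on both stromas, farthest for Dusp16 on OP9-DLL1 at -5.10.

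The libraries share 2 cell types and 2 stromas, so similarity between genes is given as a description only. Predicted gene models aside, these genes followed the responding members most closely in log2 CPM over the 8 libraries. They were Otulinl (r = 0.987), Cd244a (0.985) and Sqstm1 (0.977) for Dusp6, Clec4d (0.996), Cyfip1 (0.996) and Maf (0.995) for Dusp3, Fam161a (0.996), Hsd17b11 (0.99) and Wipi1 (0.986) for Dusp16, and the stroma marker Pdgfrb (0.99), Zfpl1 (0.982) and Mtpn (0.981) for Dusp2. Among the members, Dusp1 and Dusp3 (r = 0.888), Dusp16 and Dusp3 (0.867) and Dusp1 and Dusp16 (0.84) were closest, all 3 higher in monocytes, and Dusp5 and Dusp7 were the most opposed (-0.872).

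The rest of the pathway was described by 7 lists of 135 genes, of which 103 were tested. In monocytes 3 of the 103 were higher and 7 lower on OP9-DLL1 (all genes 3.36% and 3.03%), and in cMoPs none passed by limma-trend (0.77% of all genes). There, 6 were higher and 10 lower before adjustment (p below 0.05), voom gave 0 higher and 1 lower, and weighted voom gave 0 and 3. Of 21 tested genes of the ERK cascade, from Ras to ERK, none passed in monocytes by limma-trend (before adjustment 1 higher and 2 lower had p below 0.05, and 2 were higher by voom and 0 by weighted voom), with Nras at -0.40 ± 0.13 and the Ras activator Rasgrp2 at 0.40 ± 0.14. Of 24 genes of the JNK and p38 cascades, Mapk13, which encodes the p38 delta kinase, rose (9.95 to 22.1 CPM, log2 1.15 ± 0.17, adjusted p = 0.00648, but up to 0.0659 without either OP9-DLL1 monocyte library). The stress kinase gene Map3k20 fell (42.3 to 26.8 CPM, adjusted p = 0.0459), a call that held only without monocytes on OP9 replicate 1 when 1 library was left out (up to 0.217 otherwise) and passed in 6 of 17 alternatives.

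Among other brakes on the pathway in monocytes, Rasa3, which encodes a GTPase-activating protein for Ras and Rap, rose from 50.5 ± 0.0435 CPM on OP9 to 104 ± 1.16 CPM on OP9-DLL1 (SD, n = 2, log2 1.04 ± 0.12, adjusted p = 0.00195) and passed in all 17 alternatives. Rasa2, another Ras GTPase-activating protein, fell (20.1 to 10.9 CPM, adjusted p = 0.0452, but up to 0.256 with a library left out and holding only without monocytes on OP9 replicate 1, passing in 5 of 17 alternatives). These were the 1 higher and 1 lower of 15 other Ras-ERK inhibitors. Of 12 other dual-specificity phosphatases Ssh2, a slingshot phosphatase that acts on the actin regulator cofilin, rose (54.7 to 91.1 CPM, adjusted p = 0.0159, but up to 0.146 without either OP9-DLL1 monocyte library, passing in 13 of 17 alternatives), and of 6 other MAP kinase phosphatases none passed by limma-trend (before adjustment 1 higher and 1 lower had p below 0.05, and 0 passed by voom or weighted voom), with Ptpn7 at -0.46 ± 0.16 and Ppp2cb at 0.42 ± 0.16.

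Of 15 tested genes known as outputs of ERK, 4 were lower and 0 higher in monocytes on OP9-DLL1 by limma-trend. Over all genes 3.03% were lower and 3.36% higher. By voom and by weighted voom, 5 of the 15 were lower and 0 higher, and 0 were higher before adjustment. Not every alternative gave 0 higher, and the count of lower genes varied between alternatives. The list median was -0.70 (0.01 over all genes). The 4 were Myc (18.0 to 5.69 CPM), Egr1 (29.8 to 5.48 CPM), Ccnd1 (4.86 to 1.27 CPM) and Fos (1473 to 907 CPM), growth and immediate early genes, with adjusted p = 0.0014, 0.00622, 0.0174 and 0.0305. Ccnd1 lost the call without either OP9-DLL1 monocyte library (up to 0.102) and in the authors' deposited table (0.0818), and Fos in all but 2 of the omissions of 1 library (up to 0.23), monocytes on OP9 replicate 2 and on OP9-DLL1 replicate 1. Of 17 alternatives Myc passed in 17, Egr1 in 16, Ccnd1 in 10 and Fos in 9. Dusp6 is itself known as such an output and was higher in the same libraries. RNA levels do not show kinase activity, and how these changes relate was not tested. Of 10 outputs of the stress kinases, the chemokine gene Cxcl2 fell (87.0 to 8.71 CPM, adjusted p = 0.0168, but 0.114 without monocytes on OP9-DLL1 replicate 2, passing in 15 of 17 alternatives).

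In cMoPs the lowest p-values in each list were those of Egr1 (log2 -1.73 ± 0.38, adjusted p = 0.0945) and Ccnd1 (-1.57 ± 0.35, 0.103) among ERK outputs, which the authors' deposited table gives at 0.0468 and 0.00144, and Ptgs2 (-1.93 ± 0.43, 0.104) and Atf3 (-1.79 ± 0.44, 0.149) among stress kinase outputs. The Ras activator Rasgrp1 was at 3.0037 ± 0.66 (0.0969) and Mapk7 at 0.43 ± 0.16 (0.429) in the ERK cascade, and Mapk13 at 0.70 ± 0.17 (0.151) and Map2k3 at 0.64 ± 0.27 (0.509) in the JNK and p38 cascades. Rasa3 was at 0.48 ± 0.12 (0.151) and Rasa2 at -0.74 ± 0.21 (0.224). Dusp22 (-0.32 ± 0.16), Ssh2 (0.27 ± 0.14), Ppp2ca (-0.25 ± 0.15) and Ppm1b (-0.34 ± 0.21) had adjusted p of 0.591 to 0.686.

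**Figure D5:**
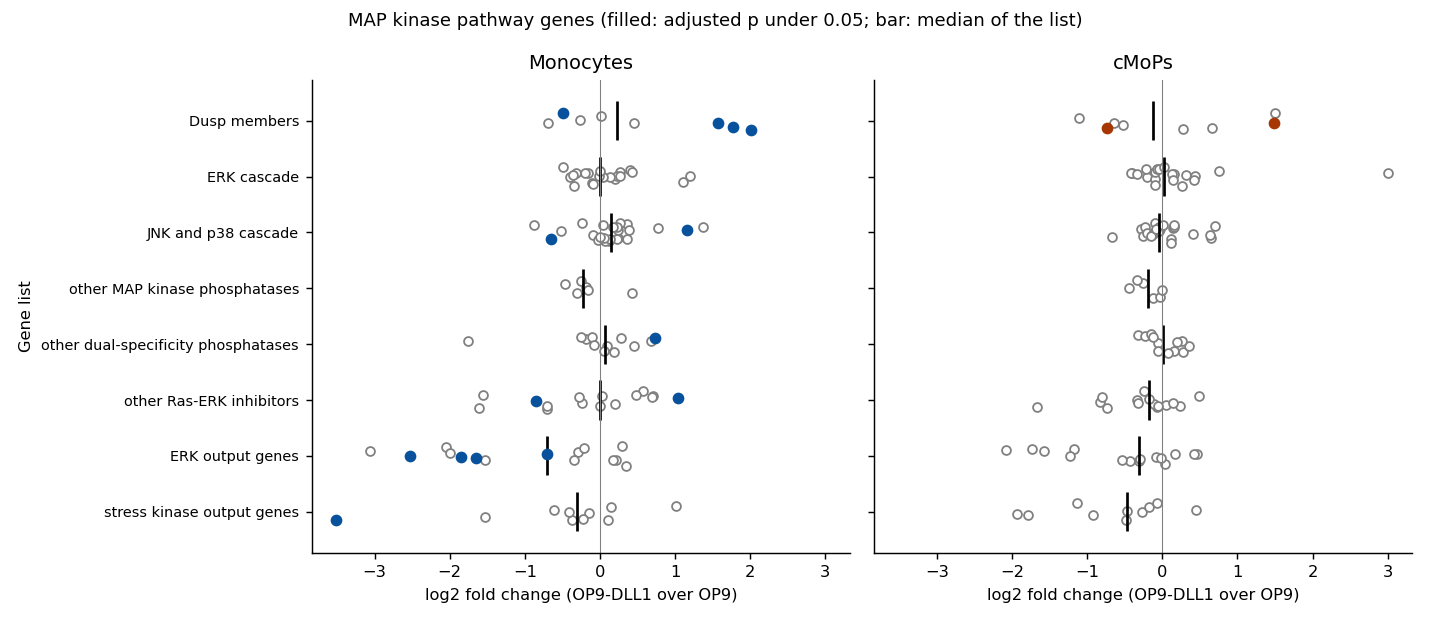
Each point is the log2 fold change of 1 tested gene on OP9-DLL1 over OP9, in monocytes (left) and cMoPs (right), by gene list, with a bar at the list's median and filled points where the limma-trend adjusted p was under 0.05. In monocytes the 4 filled points among ERK outputs lie left of 0 (median -0.70), and 3 of the 4 filled Dusp points lie right of it.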

How the data were processed

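RNA was sequenced from 8 libraries in 4 groups of 2. The submitters' processing notes name STAR 2.7.9a and Salmon 1.5.2, featureCounts 2.0.3 of Subread, limma and edgeR, bcl2fastq, and build mm10, with no roles. The table deposited by the authors holds log2 CPM on an effective library size, and their own log2 fold changes and adjusted p-values, which are named where used. The sources used here do not give the gene filter and model behind them. Of 13430 rows the 42 that repeat an identifier were dropped.

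Taking the lowest value of a library as 0 reads (0.5 reads added, as voom writes it) gave whole reads for 100% of values (tolerance 0.001). Recovered reads served for depth and for voom. Counts given by voom or weighted voom are at an adjusted p under 0.05. The test was limma-trend (limma 3.58.1, R 4.3.3) on the deposited log2 CPM, 1 mean per group over 8 libraries, 4 residual degrees of freedom, two-sided, with Benjamini-Hochberg adjustment over 13374 genes and a threshold of 0.05. No label says that replicates came from separate mice or cultures. The p-values therefore reflect the spread among these libraries alone, and that spread may be technical.

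The members and lists were chosen with earlier results of these data known. Named are all members, up to 4 passing genes per pathway list and coculture contrast (or 2 by p where none passed), and the 3 genes most like each responding member. Predicted gene models, with symbols that begin with Gm and a digit or end in Rik, were left out of the last. Positions and union exon lengths are from GENCODE M21 (GRCm38), and all 8 genes matched there and in RefSeq's promoter table.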

Additional observations from a re-analysis of the deposited data

How the results depend on the processing

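The 5 counts of passing members (4 in the monocyte response, 2 in the cMoP response, 0 in the difference of responses, 5 and 4 between the cell types on OP9 and OP9-DLL1) were recomputed without the low-value filter, with libraries centred on their medians, without the mean-variance trend, by voom with and without library weights, on only the 4 libraries compared (not possible for the difference), on log2(CPM + 1), from the authors' deposited table (which has no difference of responses) and without each library. In monocytes the count was 1 (Dusp2) without the trend, with Dusp6, Dusp16 and Dusp3 lost, and 2 with only the 4 libraries. In cMoPs it was 0 without the trend, with Dusp6 and Dusp3 lost, and 1 by voom, with Dusp3 lost. With 1 library left out, a lone replicate being taken to vary like the other groups, the counts ranged from 0 to 4 in monocytes, 0 to 2 in cMoPs, 0 to 3 for the difference, 4 to 6 on OP9 and 4 to 5 on OP9-DLL1. The monocyte count was 0 and 1 in the absence of the OP9-DLL1 monocyte replicates 2 and 1, and 2 in that of OP9 monocyte replicate 1 or either OP9-DLL1 cMoP library. The cMoP count was 0 in the absence of any cMoP or OP9-DLL1 monocyte library, and the difference had 3 in that of OP9 monocyte replicate 2. No other setting moved a count by over 1.5 times.

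With the replicate number as a block (replicate block) the counts were 4, 2, 0, 5 and 4, so no count of calls changed. The labels do not say that equal numbers share a source, and over genes the correlation of deviations between same-numbered samples was only 0.023 to 0.089.

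Over the members' recomputed values, 599 kept their direction and side of the threshold, 40 lost the call, 14 gained it and 11, none of them called, changed sign. The last were Dusp7 in monocytes with libraries centred on their medians (-0.060) and 10 values with 1 library left out. Over those omissions the log2 values ranged from -0.13 to 0.16 for Dusp7 and -0.71 to 0.17 for Dusp5 in monocytes, -0.0026 to 0.55 for Dusp2 and -1.79 to 0.51 for Dusp10 in cMoPs, -0.72 to 0.15 for Dusp6 and -2.23 to 0.065 for Dusp10 in the difference, and, between cell types, -0.87 to 0.45 for Dusp10 on OP9 and -0.22 to 0.66 for Dusp5 on OP9-DLL1. The causes were not tested.

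Over all genes the monocyte count was 855 (52.6% higher), 248 without the trend, 306 with only the 4 libraries, and with a monocyte library omitted 164 (OP9-DLL1 replicate 2), 279 (OP9-DLL1 replicate 1) and 2488 (OP9 replicate 2), or 501 to 547 with a cMoP library omitted, and 40.9% of 890 calls were higher with libraries centred on their medians. In cMoPs it was 103, and 31 to 315 over the alternatives. Pathway genes passing in monocytes ranged from 1 to 7 higher and 1 to 10 lower, and in cMoPs from 0 to 1 and 0 to 3. Dusp5, Dusp10 and Dusp16 in cMoPs rest on 18 to 155 reads a library, Dusp5 in monocytes on 56 to 99 and Dusp2 in monocytes on OP9 on 47 and 107.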
